A study of Neurospora crassa with 3 samples.

Results

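Of 9730 Neurospora crassa genes counted in 6 poly-A RNA libraries, 91 were high in both libraries labelled set-2 H3G34R and low in the other 4. The genes were chosen on that pattern. Sense reads were scaled to CPM, counts per 1000000 reads of each library's sum over genes. A gene was taken when the lower of its set-2 H3G34R values plus 1 reached at least 3 times the highest of the other 4 values plus 1, and the lower value itself reached at least 5 CPM. The rule leaves out 2 loci. The levels of these genes in set-2 H3G34R against the other genotypes are therefore a description with no test. The same rule found 276 genes with H3G34R as the high genotype and 40 with set-2 ash1(Y888F).

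The study asked how a histone H3 mutation relates to loss of the H3K36 methyltransferase ASH1. H3G34R carries arginine in place of glycine in the tail of histone H3 and was measured in strains N5247 and N5248. The genotype labelled set-2 ash1(Y888F) joins a change in set-2 with a point mutation in ash1, in strains N6266 and N6267. The change in set-2 is read here as a deletion, which the genotype label does not state. The genotype labelled set-2 H3G34R joins the set-2 deletion with H3G34R in a single strain, N6777, sequenced as library 1 and library 2; nothing says that these came from separate cultures. All strains grew for 18 hours at 32 °C with shaking in Vogel's liquid medium, and the labels give the tissue as mycelia. No strain with the set-2 deletion alone was analysed here, so in set-2 H3G34R the deletion, its combination with H3G34R and the strain N6777 cannot be told apart. N. crassa is a filamentous ascomycete that grows as branched hyphae, forms asexual spores (conidia) on aerial hyphae, and forms fruiting bodies (perithecia) after mating. Methylation of lysine 36 of histone H3 in this fungus is laid down by SET-2, which travels with elongating RNA polymerase II, and by ASH1, which marks many poorly transcribed genes. Genes of spores and fruiting bodies are commonly low in growing hyphae and rise during development.

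Depth was alike, with 7.52 to 9.83 M sense reads per library, so that 3 reads equal 0.305 to 0.399 CPM. Correlations over genes between the 2 libraries of a genotype were 0.994 in H3G34R, 0.987 between N6266 and N6267, and 0.995 in N6777. The N6777 libraries stood apart in mapping, with 5.32% and 4.09% of reads at several places against 2.27% to 3.55% elsewhere, and 1.31% and 1.61% unmapped against 3.03% to 4.23%. Reads were counted on set-2 (NCU00269) in every library, at 34.2 and 25.6 CPM in H3G34R, 20.3 and 16.4 CPM in N6266 and N6267, and 31.8 and 31.2 CPM in N6777. The gene counts therefore do not show a deletion of set-2, and genotypes are named here by their labels. The files do not give which part of the gene, if any, was removed. Relative to the CPM scale, trimmed-mean (TMM) scaling moves set-2 ash1(Y888F) up against H3G34R by 0.29 on the log2 scale and set-2 H3G34R against set-2 ash1(Y888F) by -0.24, and with TMM-scaled CPM the rule takes 72 genes, 70 of them among the 91.

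The 91 genes together took 0.286% and 0.282% of sense reads in the H3G34R libraries N5247 and N5248. They took 0.313% in N6266 and 0.643% in N6267, both set-2 ash1(Y888F), and 3.50% and 3.88% in the N6777 libraries. Their median level was 5.63, 6.001, 6.76 and 10.2 CPM in N5247, N5248, N6266 and N6267, and 56.6 and 56.5 CPM in N6777. The genes differed widely among themselves. The lower N6777 value ran from 5.45 to 12605 CPM, with a median of 51.9. A single gene, NCU07232, held 35.4% of the reads of all 91 in set-2 H3G34R, and 11 genes held 80% of them. Without NCU07232 the shares were 0.263%, 0.250%, 0.219%, 0.391%, 2.24% and 2.53% in the same order of libraries. Most genes were low rather than silent elsewhere: 25 lay under 5 CPM in all 4 other libraries, 9 exceeded 100 CPM in at least 1 of them, and none was without reads in all 4. In bulk RNA, more cells of a kind that expresses a gene and more RNA per cell cannot be told apart.

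**Figure D1:**
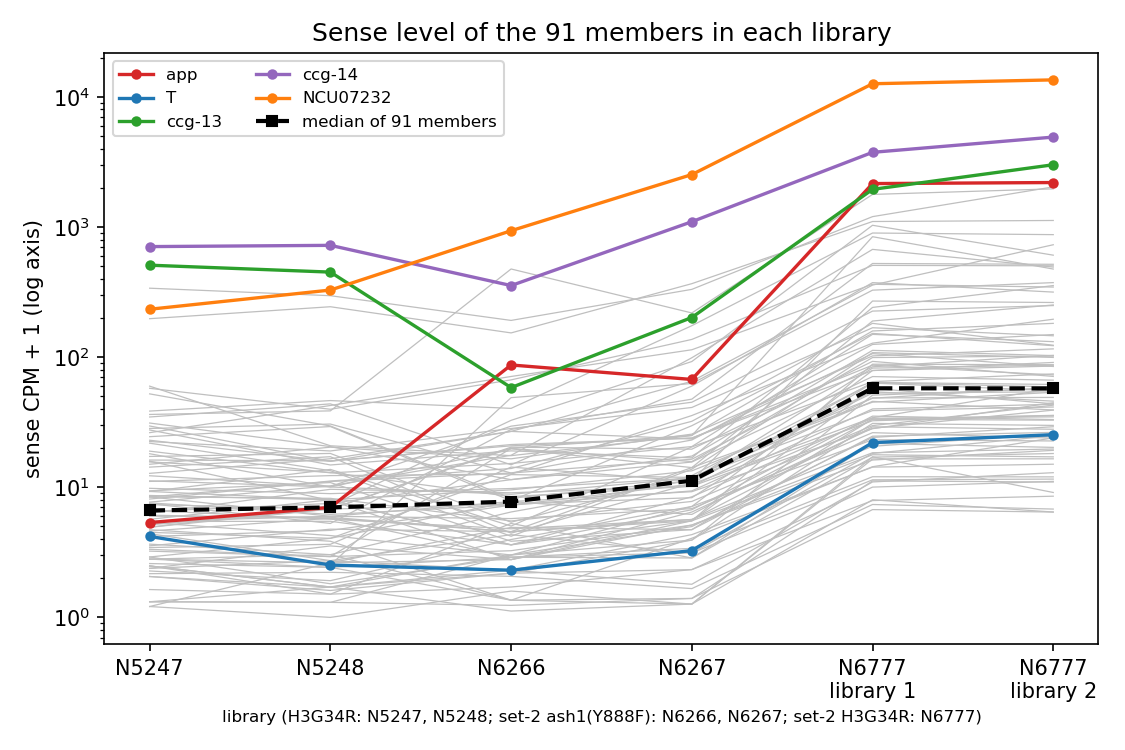
Sense level (CPM plus 1, log axis) of each of the 91 genes, called members in the plots, in each of the 6 libraries. Each grey line is a gene, coloured lines are the 4 genes with a symbol and NCU07232, and black squares are the median, which lies between 5.63 and 10.2 CPM in the first 4 libraries and at 56.6 and 56.5 CPM in N6777, a separation that the choice of genes fixes.

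The ratio used by the rule had a median of 3.83. It lay under 4 in 50 genes, was at least 5 in 24 and at least 10 in 4. Just inside the threshold were NCU08128 at 3.002, with 9.97 CPM in the lower N6777 library against 2.66 in the highest other one, NCU04930 at 3.003 with 1101 against 366 CPM, and NCU06305 at 3.03 with 344 against 113 CPM. Just outside were NCU05639 at 2.99, NCU04030 at 2.98 and NCU05128 at 2.94. The set therefore has no natural edge at the threshold. The library that came nearest to N6777 was N6267 for 49 genes, N5247 for 23, N6266 for 13 and N5248 for 6. With N6267 left out, the rule would take 189 genes, and leaving out any other single library gives 93 to 112.

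The reference annotation gives a symbol to 4 of the 91 genes, and the other 87 carry an NCU number only and are given no role here. The gene app (NCU04533) encodes the abundant perithecial protein, a fruiting-body protein of N. crassa and its relative Sordaria macrospora. Its level was 4.35 and 6.001 CPM in H3G34R, 86.0 and 66.4 CPM in set-2 ash1(Y888F), and 2155 and 2194 CPM in set-2 H3G34R. The 3 genotypes formed separate steps, and the ratio of the rule, 24.8, was the highest of all 91. T (NCU00776) encodes tyrosinase, the copper enzyme of melanin synthesis, which N. crassa makes under starvation and in sexual development. It stood at 3.19 and 1.53 CPM in H3G34R, 1.31 and 2.26 CPM in set-2 ash1(Y888F), and 21.0 and 24.4 CPM in set-2 H3G34R. These levels rest on 11 to 30 sense reads in the first 4 libraries and on 198 and 210 in N6777. H3G34R and set-2 ash1(Y888F) overlapped for T.

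Both remaining named genes belong to the clock-controlled genes, a group first found through daily rhythms of their transcripts. The ccg-14 (NCU07787) product is a small secreted protein of the cerato-platanin family. Its level was 706 and 722 CPM in H3G34R, 354 and 1096 CPM in set-2 ash1(Y888F), and 3745 and 4905 CPM in set-2 H3G34R. The set-2 ash1(Y888F) strains lay on either side of H3G34R. The ccg-13 gene (NCU08907) also carries the name ncw-7, for a non-anchored cell wall protein. It stood at 508 and 449 CPM in H3G34R, 57.3 and 201 CPM in set-2 ash1(Y888F), and 1945 and 3006 CPM in set-2 H3G34R. For ccg-13 set-2 ash1(Y888F) was the lowest genotype, whereas for app H3G34R was the lowest.

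Among the genes without a symbol, 3 more had a ratio of at least 10. NCU04205 measured 1.49, 0.712, 1.19 and 2.93 CPM in N5247, N5248, N6266 and N6267, and 50.03 and 56.4 CPM in the N6777 libraries. NCU05852 measured 1.49, 0.712, 2.02 and 6.12 CPM, then 78.0 and 84.3 CPM. NCU09650 measured 6.48, 4.27, 26.8 and 46.5 CPM, then 523 and 516 CPM. All 3 had a low floor in H3G34R, and in all 3 N6267 was the highest of the other libraries. NCU07232, which holds the most reads of the 91, had 232 and 327 CPM in H3G34R, 935 CPM in N6266, 2527 CPM in N6267, and 12605 and 13499.6 CPM in N6777. NCU10865 had 6.69 and 9.26 CPM in H3G34R, 16.6 CPM in N6266 and 97.9 CPM in N6267, against 672 and 491 CPM in N6777. For NCU07232 and NCU10865 the step between the 2 set-2 ash1(Y888F) strains was larger than that between the 2 H3G34R strains.

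Other high ratios came with other patterns in the low libraries. NCU05126 had 3.93 and 6.20 CPM in H3G34R and 31.7 and 91.5 CPM in set-2 ash1(Y888F), and its N6777 libraries differed at 1030 and 606 CPM. NCU05788 was highest among the other libraries in N5247 at 58.8 CPM, with 19.8 CPM in N5248, 16.5 and 23.9 CPM in set-2 ash1(Y888F), and 841 and 474 CPM in N6777. NCU00855 differed about as much between the N6777 libraries, at 357 and 729 CPM, over 14.9 to 64.2 CPM elsewhere. In these 3 genes the spread between libraries of a genotype was wide. NCU02030 was nearly level across the first 4 libraries, at 3.56 to 5.10 CPM, with 56.6 and 42.8 CPM in N6777. NCU07511 had 2.02 to 4.35 CPM there and 29.95 and 28.9 CPM in N6777. NCU17050, with a ratio of 7.24, NCU16683 with 7.11, NCU07804 with 6.40 and NCU06153 with 6.34 complete the 13 highest ratios together with NCU09167 and NCU09168, described with their neighbours below.

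Markers of conidia and aerial hyphae and of perithecia were read beside these genes, because app, ccg-13 and ccg-14 themselves stand on those lists. Of 7 conidial and aerial markers that are not among the 91, 4 were at least 2-fold higher in set-2 H3G34R than in the mean of the other 4 libraries and none was 2-fold lower; 10.6% of all 8559 genes were that much higher. Their summed level was 152 and 220 CPM in H3G34R, 256 and 335 CPM in set-2 ash1(Y888F), and 617 and 1226 CPM in set-2 H3G34R. In N6777 much of it was eas, the hydrophobin of the conidial surface, and con-8, a conidiation gene. In the 3 genotypes eas was at 7.97 and 21.0 CPM, 72.0 and 22.3 CPM, and 173 and 680 CPM. In the same order con-8 was at 35.6 and 61.4, 48.9 and 174, and 251 and 339 CPM. The regulators fl, at 49.1 and 76.3 CPM in N6777 against 21.6 to 31.4 CPM elsewhere, and rca-1, at 45.8 and 73.2 CPM against 12.6 to 31.0 CPM, were highest in N6777 too. Other markers of the same list did not follow: con-6 lay at 94.1 and 51.5 CPM in N6777 and at 70.6 to 94.1 CPM elsewhere, and con-13 was at most 2.03 CPM in any library. The marker acon-3 was highest in N6777 by less than 2-fold, at 4.04 and 5.10 CPM against 0.637 to 3.72 CPM elsewhere. The part of conidial and aerial hyphal RNA in the levels of the 91 genes was not tested.

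Among perithecial markers other than app, the summed level was 141 and 162 CPM in H3G34R, 136 and 229 CPM in set-2 ash1(Y888F), and 461 and 495 CPM in set-2 H3G34R. In N6777 most of that was asd-1, a gene of ascus development, at 46.2 and 63.8, 111 and 197, and 416 and 449 CPM in the 3 genotypes. In contrast per-1, which is needed for pigment of the perithecial wall, was at 61.1 and 58.0 CPM in H3G34R. It was at 3.32 and 4.79 CPM in set-2 ash1(Y888F) and at 11.4 and 7.89 CPM in N6777. In N6777 it was thus low against H3G34R only. The marker poi-2 was level at 19.2 to 35.3 CPM. The fourth marker, asd-3, another gene of ascus development, was at 8.50 and 8.58 CPM in N6777 against 1.73 to 5.39 CPM elsewhere. Of these 4 markers, 2 were thus at least 2-fold higher in set-2 H3G34R than in the mean of the other libraries and 1 was 2-fold lower. The lower one was per-1, through its level in H3G34R. The part of perithecial RNA in the levels of the 91 genes was not tested. None of 6 markers of growing hyphae differed 2-fold, and their sum was 31508 and 32370 CPM in N6777 against 32779 to 35328 CPM in the other libraries. On the wider lists, 1 of 17 perithecial and mating genes and 2 of 18 conidial and aerial genes were among the 91. Of 78 genes with a glycoside hydrolase symbol, 0 were. Over all genes the set is 91 of 9730, and at that share 0 of 78 does not show an absence. At least 2-fold higher in set-2 H3G34R were 4 of the 17, 6 of the 18 and 14 of the 78 genes, beside 10.6% of all 8559 genes. At least 2-fold lower were 2, 0 and 11, and that share over all genes was not computed. On the conidial and aerial list the 6 were ccg-13, ccg-14 and the 4 markers described above, and the other 12 did not differ 2-fold. The median log2 difference between set-2 H3G34R and the other 4 libraries was 0.04, 0.34 and 0.24 for the 3 lists, beside 0.04 for all genes.

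NCU numbers follow gene order in most of the genome, and they were not used by the rule. With numbers that differ by 1, 8 of the 91 genes formed 4 adjacent pairs. How many pairs other sets of 91 genes would form was not computed, here or for the reference order below. NCU09167 measured 26.6, 13.8, 18.0 and 15.8 CPM in the first 4 libraries and 240 and 354 CPM in N6777, while its neighbour NCU09168 measured 17.1, 9.05, 18.7 and 13.2 CPM, then 188 and 251 CPM. The pair matched in shape, with N5247 above N5248 and N6777 library 2 above library 1 in both genes. NCU09568 measured 3.19, 1.53, 47.8 and 61.7 CPM, then 326 and 373 CPM, and NCU09569 measured 11.3, 9.15, 28.5 and 44.0 CPM, then 225 and 248 CPM. In this pair both set-2 ash1(Y888F) strains lay above both H3G34R strains, while their place under N6777 is fixed by the rule.

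NCU04930 and NCU04931 had 196 and 33.7 CPM in N5247, 243 and 42.7 CPM in N5248, 152 and 13.9 CPM in N6266, and 366 and 58.9 CPM in N6267. In N6777 they had 1101 and 373 CPM in library 1, and 1121 and 315 CPM in library 2. In both genes N6266 was the lowest library and N6267 the highest outside N6777. NCU07976 and NCU07977 were low pairs with at most 3.06 and 0.399 CPM outside N6777, and 13.4 and 23.0 CPM and 5.74 and 5.45 CPM in it. In the gene order of the reference assembly, 11 of the 91 genes lay next to another of them, in 6 pairs, since NCU04928 precedes NCU04930 and NCU09904 precedes NCU09906 there. NCU04928 measured 7.12, 10.2, 12.9 and 31.1 CPM, then 181 and 122 CPM. NCU09904 measured 14.9, 6.92, 1.78 and 4.52 CPM, then 87.2 and 86.4 CPM, and NCU09906 measured 51.2, 28.6, 7.24 and 10.2 CPM, then 269 and 262 CPM. Both genes of the last pair were lower in each set-2 ash1(Y888F) strain than in either H3G34R strain.

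**Figure D2:**
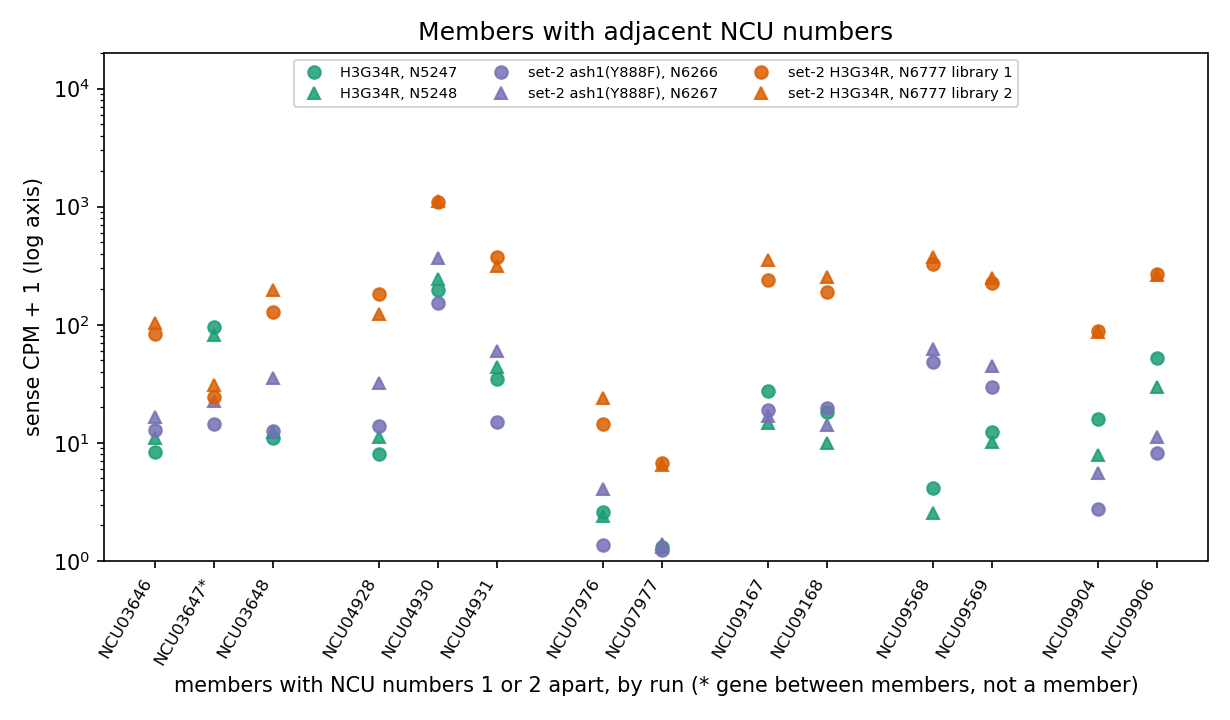
Sense level (CPM plus 1, log axis) in each library of the genes whose NCU numbers lie 1 or 2 apart, grouped by run, with colour for the genotype and shape for the library. NCU09568 and NCU09569 step up from H3G34R to N6266 and N6267 to N6777, while NCU03647, which lies between genes of the set and does not belong to it, is highest in H3G34R.

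Adjacent position did not always carry the pattern. NCU03647 lies between NCU03646, at 7.44 to 15.4 CPM outside N6777 and 83.3 and 102 CPM in it, and NCU03648, at 10.1 to 34.6 CPM outside and 127 and 195 CPM in it. NCU03647 itself measured 95.5 and 81.7 CPM in H3G34R, 13.4 and 21.4 CPM in set-2 ash1(Y888F), and 23.6 and 30.2 CPM in set-2 H3G34R, so it was highest in H3G34R. Over the 139 tested genes that flank a gene of the set and do not belong to it, the median log2 difference between set-2 H3G34R and the other libraries was 0.50, and 35 of them, 25.2%, were at least 2-fold higher. The corresponding values over all 8559 genes were 0.04 and 10.6%. Within 50 genes of a chromosome end in the reference order lay 9 of the 91, or 9.89%, against 7.19% of all genes. Within 100 genes lay 23, or 25.3%, against 14.4%, and within 25 genes 6, or 6.59%, against 3.6%.

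The comparison that the rule did not make is that between set-2 ash1(Y888F) and H3G34R, 2 genotypes whose 4 libraries all had to be low. All 91 genes passed the filter on low counts, which the 2 N6777 libraries can satisfy alone; 87 also passed it in the 4 libraries compared. With edgeR's quasi-likelihood test and Benjamini-Hochberg adjustment over 8561 genes, 32 of the 91 were higher in set-2 ash1(Y888F), or 35.2% beside 26.3% of all genes tested. Another 7 were lower, or 7.69% beside 25.5%. In all, 39 of the 91, or 42.9%, were called, beside 51.8% of all genes. At an unadjusted p under 0.05 the counts were 40 higher and 7 lower. For these counts, and for those with a library left out below, the shares over all genes were not computed. The median log2 difference of the 91 was 0.60, against -0.00136 over all genes, and 67 of them lay above 0. Scaling by the sum over genes lowers both medians, to 0.31 and -0.29. With it, 30 of the 91 were called higher and 12 lower, while 17.7% of all genes were called higher and 39.7% lower. In a fit of only those 4 libraries, 29 of 87 were higher, or 33.3% beside 22.9% of all genes, and 4 were lower, or 4.6% beside 24.4%. Without N6267, 26 were higher and 17 lower. Without either N6777 library, 4 were lower.

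**Figure D3:**
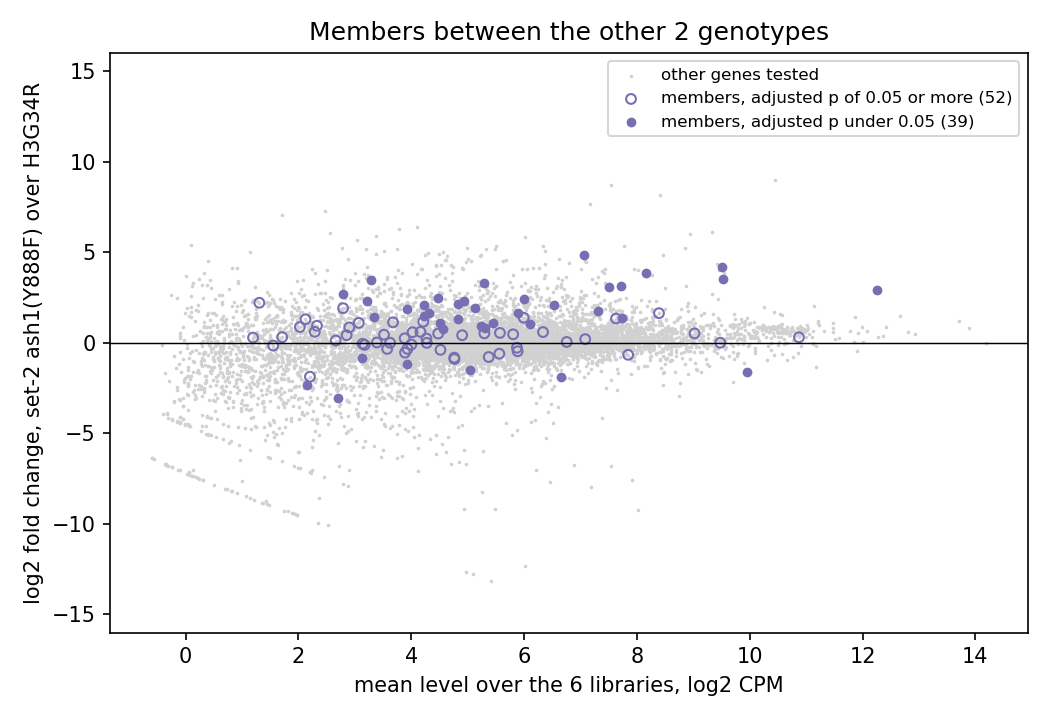
Log2 fold change of set-2 ash1(Y888F) over H3G34R from edgeR against the mean level in log2 CPM for all genes tested (grey), with the 39 of the 91 genes that passed the test filled and the others open. The filled points reach 4.83 (NCU09568) and -3.05 (NCU09171).

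The largest rises in set-2 ash1(Y888F) over H3G34R were those of NCU09568, by 4.83 on the log2 scale (SE 0.288, edgeR adjusted p 6.92e-05), and app, by 4.16 (SE 0.227, adjusted p 5.20e-05). NCU05126 followed with 3.87 (SE 0.579, adjusted p 0.00201) and NCU09209 with 3.54 (SE 0.373, adjusted p 5.27e-04). NCU09209 had 35.3 and 37.6 CPM in H3G34R, 475 and 217 CPM in set-2 ash1(Y888F), and 1778 and 1962 CPM in set-2 H3G34R. NCU08447, the remaining gene among the 5 largest, rose by 3.48 (SE 0.523, adjusted p 0.00206) from 0.319 and 0.305 CPM, which is 3 reads in each library, to 2.02 and 3.99 CPM. In these 5 genes the genotypes did not overlap. For set-2 H3G34R the rule fixes this, and the 5 were picked for the largest rises between the other genotypes. The non-overlap is therefore a description, and its share over the set or over all genes was not computed. NCU07232 rose by 2.91 (SE 0.457, adjusted p 0.00241) and NCU09650 by 3.06 (SE 0.299, adjusted p 4.01e-04). NCU10865 rose by 3.11 (SE 0.762, adjusted p 0.0140), a call lost without either H3G34R library, with adjusted p of 0.0902 and 0.0641.

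The largest falls were those of NCU09171, by -3.05 (SE 0.402, edgeR adjusted p 0.00123), and NCU08128, by -2.31 (SE 0.414, adjusted p 0.00411). NCU09171 had 3.72 and 2.85 CPM in H3G34R, 0.356 and 0.266 CPM in set-2 ash1(Y888F), and 15.5 CPM in both N6777 libraries. NCU09906 was lower by -1.90 (SE 0.289, adjusted p 0.00215). The wall protein gene ccg-13 was lower by -1.61 (SE 0.522, adjusted p 0.0383) and NCU09904 by -1.51 (SE 0.472, adjusted p 0.0337). These last 2 calls were fragile. For ccg-13 the adjusted p was 0.126 and 0.102 without N5247 and without N5248, and 0.0659 and 0.0674 without the N6777 libraries. For NCU09904 the difference was -0.89 (adjusted p 0.177) without N5247 and -0.98 (adjusted p 0.113) without N6266, and the adjusted p was 0.0709 and 0.0722 without the N6777 libraries.

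Differences that did not pass the test in the edgeR fit included T, at -0.12 (SE 0.445, adjusted p 0.839), and ccg-14, at 0.30 (adjusted p 0.598). The value for ccg-14 depended on the strain, at 0.90 (adjusted p 0.00454) without N6266 and -0.70 (adjusted p 0.0156) without N6267. The neighbours NCU09167 and NCU09168 differed by 0.05 (adjusted p 0.916) and 0.59 (adjusted p 0.168), with the first at -0.25 when scaled by the sum over genes. In the pair of NCU09568 and NCU09569 both genes rose, the latter by 2.11 (SE 0.222, adjusted p 5.21e-04).

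Within set-2 ash1(Y888F), the strains were not equal for these genes. In N6267 73 of the 91 genes, or 80.2%, were above their level in N6266, with a median log2 difference of 0.45. Of the 91, 22 were at least 2-fold higher in N6267, or 24.2%, beside 3.44% of 7914 genes with at least 5 CPM in a library. Another 1, or 1.1%, was at least 2-fold lower, beside 0.96% of those 7914 genes. Every gene of the set meets the minimum of 5 CPM through N6777, and 62 of the 91 meet it in N6266 or N6267. Of these 62, 21 were at least 2-fold higher in N6267, or 33.9% beside 3.62% of 7164 genes that meet it there, and 52 were higher at all, or 83.9% beside 50.3%. Over the 7914 genes 51.1% were higher in N6267, and the median difference was 0.01. The other pairs of libraries differed little for the 91 genes, with medians of -0.09 for N5248 over N5247 and 0.03 for N6777 library 2 over library 1. Both set-2 ash1(Y888F) strains entered the rule as levels to exceed, so these are descriptions of single libraries without a test. They bear on the comparison above, whose spread includes this step between strains.

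The authors also deposited a comparison of each genotype with wild type, and its wild-type libraries were not used here. In the authors' deposited table for set-2 H3G34R, 46 of the 89 genes with a value were higher than wild type at an adjusted p under 0.05, or 51.7% beside 24.9% of all genes, and 20 were lower, or 22.5% beside 26.4%. In the authors' deposited table for H3G34R, 9 were higher, or 10.1% beside 33.6%, and 64 were lower, or 71.9% beside 30.9%. In the authors' deposited table for set-2 ash1(Y888F), 33 of 88 were higher, or 37.5% beside 10.8%, and 7 were lower, or 7.95% beside 6.42%. The median log2 fold change over wild type in the authors' deposited tables was 0.52 for set-2 H3G34R, -2.004 for H3G34R and 0.92 for the set-2 ash1(Y888F) table, and over all genes it was -0.02, 0.01 and 0.00455. The genes were chosen on the mutant libraries that entered these tables, so these counts describe the choice as well. The wild type behind the set-2 ash1(Y888F) table differed from that behind the others, as described below. Its median and counts are therefore not on the same footing as theirs. Being highest in N6777 among these 6 libraries did not mean being above wild type, since 20 genes were lower. In the authors' deposited table for set-2 H3G34R, 35 genes were within 2-fold of wild type, and that share over all genes was not computed.

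**Figure D4:**
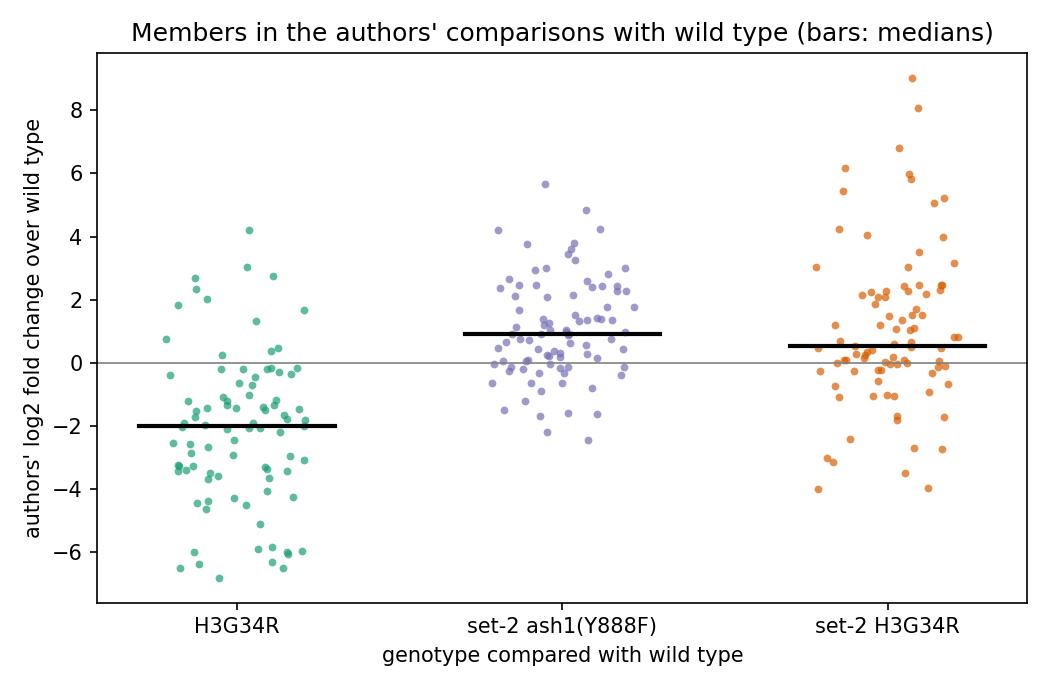
The authors' log2 fold change over wild type of 89 of the 91 genes in each of the 3 deposited comparisons, 1 point for each gene, with bars at the medians. The medians are -2.004 for H3G34R, 0.92 for the ash1(Y888F) genotype and 0.52 for set-2 H3G34R, whose values spread from -3.98 (ccg-14) to 9.02 (app). The ash1(Y888F) comparison rests on a wild type unlike that of the others, so its points are not on the same footing.

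The genes farthest above wild type in the authors' deposited table for set-2 H3G34R were app at 9.02 on the log2 scale, NCU09209 at 8.07, NCU09650 at 6.82, NCU09168 at 6.16 and NCU09569 at 5.997. For app the authors' deposited tables gave 0.76 (adjusted p 0.184) in H3G34R and 5.66 in set-2 ash1(Y888F). For NCU09209 the authors' deposited tables gave 2.70 and 4.84 in the same order, and for NCU09168 3.05 and 2.67. The fruiting-body gene app was thus above wild type in both genotypes labelled set-2, while NCU09209 and NCU09168 were above it in all 3. At the other end of the authors' deposited table for set-2 H3G34R were ccg-14 at -3.98, NCU00399 at -3.96, ccg-13 at -3.48, NCU06305 at -3.13 and NCU05394 at -3.02. In H3G34R the authors' deposited table gave -6.50 for ccg-14, -6.35 for NCU00399, -5.83 for ccg-13 and -6.29 for NCU06305. These genes were below wild type in both tables; the rule fixes which of the 2 genotypes is nearer to it. T and NCU07964 are listed with a mean of 0 and no test in the authors' deposited tables. Neither has a read in the deposited column for both strands, and both have sense reads in every library.

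A wild-type level was derived for each table by dividing a gene's mean CPM in the mutant libraries, both strands together, by the authors' fold change. It was compared over 7813 genes with an authors' mean of at least 10 in all 3 tables, 82 of them among the 91. The wild types behind the set-2 H3G34R and H3G34R tables differed by a median of 0.00390 on the log2 scale in size after centring, so those 2 tables do not give independent controls. The wild type behind the set-2 ash1(Y888F) table differed from that behind the set-2 H3G34R table by a median of 0.70 in size. Against it, the wild type behind the set-2 H3G34R table had a median centred log2 difference of 2.10 over the 82 genes, and 63 of them, or 76.8%, were at least 2-fold higher, beside 18.5% of all genes. A further 2, or 2.44%, were at least 2-fold lower, beside 16.2%. This readout involves wild-type material, which the rule did not use, though each level is derived through the mutant libraries.

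**Figure D5:**
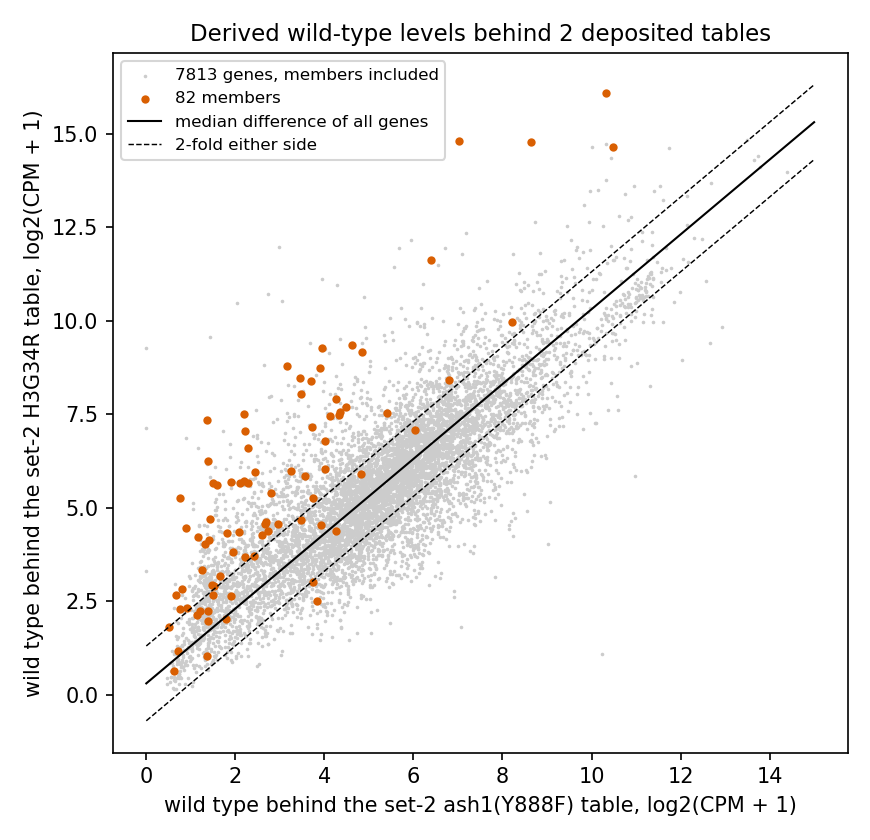
Derived wild-type level behind the set-2 H3G34R table against that behind the set-2 ash1(Y888F) table, both as log2(CPM + 1), with 7813 genes in grey, 82 of the 91 genes in colour, a solid line at the median difference of all genes and dashed lines 2-fold either side. Of the coloured points, 63 lie above the upper dashed line and 2 under the lower one.

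For NCU07232 the derived wild-type level was 28440 CPM behind the set-2 H3G34R table and 128 CPM behind the set-2 ash1(Y888F) table. For ccg-14 it was 69416 against 1280 CPM, for ccg-13 28245 against 400.4 CPM, and for NCU05126 651 against 23.6 CPM. These genes were thus far apart between wild types of the same label, and for the 2 clock-controlled genes and NCU07232 the first wild type exceeded both N6777 libraries. The fruiting-body gene app differed less, at 3.42 against 1.21 CPM, and NCU09209 went the other way at 7.06 against 12.4 CPM. For app, NCU09209 and NCU09650, at 4.68 against 13.2 CPM, both wild types lay far under N6777. Because of this, the sign against wild type of a gene such as NCU07232, at -1.09 in the authors' deposited table for set-2 H3G34R and 3.80 in that for set-2 ash1(Y888F), rests on which wild type was used. The cause of the difference between the wild types was not tested.

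Antisense reads over the 91 genes numbered 1156 to 1429 in the first 4 libraries and 3472 and 3190 in N6777. As a share of all reads on these genes they were 4.54%, 4.90%, 4.20% and 2.69%, then 1.04% and 0.945% in N6777, and over all genes the share was 3.08% to 3.78%. Antisense CPM was at least 2-fold higher in set-2 H3G34R for 14 of the 91, or 15.4%, beside 3.73% of all genes, and 2-fold lower for 0, with no test because the contrast is that of the rule. The median log2 difference was 0.27, beside -0.03 for all genes. NCU10591 differed most, with 13, 9, 7 and 4 antisense reads in the first 4 libraries and 136 and 87 in N6777, beside 104 and 95 sense reads there. The antisense reads of app numbered 9, 13, 13 and 9, then 126 and 117. T was another case, with 40 to 102 antisense reads in the first 4 libraries and 84 and 48 in N6777, more than its sense reads in each of the first 4 and fewer in N6777. T had no read in the column for both strands, and whether its reads on either strand belong to an overlapping gene was not tested.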

How the data were processed

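Poly-A RNA of 3 genotypes was sequenced with a stranded kit per the labels' protocols, with 2 libraries each. The authors deposited raw read counts per gene in 3 columns (STAR 2.6.0, per the submitters' processing notes): both strands together and each strand alone. Genome build and annotation: not given in the sources used here. The strand column with more reads was taken as sense, and the 4 lines of unassigned reads stayed out. The authors deposited, for each genotype against wild type, a mean normalised signal, a log2 fold change, a standard error, a Wald score, and raw and adjusted p-values; DESeq2 1.18.1 is the tool named in the submitters' processing notes. The columns have no header and were identified from their values.

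CPM was computed on each library's sum over genes. Set-2 ash1(Y888F) was compared with H3G34R by edgeR 4.0.16 (quasi-likelihood, TMM, filterByExpr, all 6 libraries in 1 fit, two-sided, Benjamini-Hochberg at 0.05), tested on simulated data first; DESeq2 1.42.0 was an alternative. Derived wild-type levels were compared as log2(CPM + 1), centred on the median of all genes. A level difference between set-2 H3G34R and the other 4 libraries is also on the log2(CPM + 1) scale. Each library counts as 1 replicate, and the p-values cover just the variation among those libraries, in N6777 possibly a technical one. Chi-square per degree of freedom between the libraries of a genotype was 11.1 to 36.8, above counting noise.

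The genes and lists were chosen with earlier results of these data known. Genes named are the 20 with the highest ratio, those in runs, with a symbol, at the threshold or on a list, and the 5 largest each way in the edgeR test and in the authors' set-2 H3G34R table. Others (NCU07232, NCU10865, NCU03647 and genes of antisense reads) were chosen after their values were seen. Symbols and gene order came from RefSeq's table, which matched 9729 of 9730 genes. Sequences, gene lengths and product names were not used here, so levels are not compared between genes per length.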

Additional observations from a re-analysis of the deposited data

How the results depend on the processing

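The number of genes taken was 262 at a fold of 2 and 41 at a fold of 4. It was 93 to 189 with 1 library left out, the highest without N6267. Genes in runs numbered 13 when steps of up to 2 were allowed and 30 at a fold of 2. The share within 100 genes of a chromosome end was 25.3%. Of the genes called in set-2 ash1(Y888F) against H3G34R, 4 were lower in a fit of only those 4 libraries and 12 with the sum over genes as library size, an alternative added after seeing the data, as were those on the derived wild types and on N6267 over N6266. Leaving out 1 library gave 4 to 17 lower, 26 to 47 higher and 2754 to 4565 calls over all genes, the fewest without N5247. With 1 library left out, the log2 difference changed sign for T, from -0.54 without N5248 to 0.47 without N5247 and 0.23 without N6266. It did so for ccg-14, from 0.90 without N6266 to -0.70 without N6267. For NCU09167 it ran from 0.56 without N5247 to -0.33 without N5248, with -0.07 without N6266, and was -0.25 with the sum over genes as library size. The cause was not tested. The remaining 54 values of counts and shares stayed within 1.5 times or their interval. No paired analysis was possible because the labels give no replicate numbers that groups share. Promoter motifs, protein features and lists by product name were not run. With 2 libraries per genotype, 1 strain for set-2 H3G34R and few reads on low genes such as T, small differences were not detectable. The authors' fold changes of low genes may understate or overstate derived levels.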
